A study of Mus musculus with 30 samples.

Results

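Wild type bone marrow derived macrophages that received valinomycin on top of IL-4 were set against cells given only IL-4, over 3 libraries with valinomycin and 3 without it, of 30 libraries in the whole series. The members were chosen by their labels alone, and every gene of the count tables entered the comparison. Cells came from C57BL/6 mice, were cultured in 20 ng/mL CSF-1, on which the macrophage lineage depends, and were used on culture day 7. The valinomycin group received 10 nM valinomycin with 20 ng/mL IL-4. A second stimulated group received 10 µM prostaglandin E2 (PGE2) with the same IL-4 and is given beside it. The control group received 20 ng/mL IL-4 alone, and 3 unstimulated libraries entered the fit. CSF-1 was therefore shared by all of these groups. The labels do not give the time of stimulation, and they do not say whether the 3 libraries of a group came from separate mice or cultures. The p-values below therefore measure the spread between these libraries, which may be technical.

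Valinomycin is a potassium ionophore. It carries potassium ions across membranes down their electrical gradient, and in cells it lowers the membrane potential of mitochondria, which drives ATP synthesis and the import of proteins made in the cytosol. Cells that sense failing mitochondria, unfolded protein in the endoplasmic reticulum (ER), uncharged tRNA or double-stranded RNA can phosphorylate the translation factor eIF2α. This integrated stress response lowers general translation while the transcription factor ATF4 is made, and ATF4 then acts on genes for amino acid synthesis, amino acid uptake and tRNA charging. IL-4 acts through STAT6 and brings macrophages into the alternatively activated state, in which mitochondrial respiration is used heavily.

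The 3 valinomycin libraries held 11842065 to 13144069 counted reads, the 3 PGE2 libraries 10523471 to 13150631 and the 3 IL-4 libraries 11402927 to 12836197. Levels are given as CPM, the counts of a gene scaled to a fixed total per library, and compared only between samples of the same gene, since CPM is not divided by gene length. Differences are log2 fold changes with their standard error (SE), and a gene was called at an adjusted p under 0.05 over all 12824 genes tested. Of these, 38.4% were called between valinomycin and IL-4, with 19.4% higher and 18.9% lower under valinomycin. With upper quartile scaling the split was 2101 higher and 3101 lower, against 2491 and 2428 with the scaling used throughout. Most differences were small: 587 genes were called higher and 277 lower by at least 1.5-fold, 194 higher and 53 lower by at least 2-fold, and 32 higher and 1 lower by at least 4-fold. The median log2 fold change over all tested genes was -0.03. List counts against IL-4 below have to be read against the 19.4% of all tested genes called higher and the 18.9% called lower. The lists were chosen with earlier results of these data known, so their counts are description. Between valinomycin and PGE2, 63.2% of genes were called, 31.5% higher and 31.7% lower under valinomycin, so a count against PGE2 has to be read against those shares. The comparisons with PGE2 and with IL-4 use the same valinomycin libraries.

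All libraries held high levels of macrophage markers. Adgre1, which encodes F4/80, had 1981, 1986 and 1927 CPM with valinomycin and 2063, 2033 and 2052 CPM with IL-4. Of 15 macrophage identity genes, 2 were called higher and 5 lower: Mertk, a receptor for dying cells, had a log2 fold change of 0.24, and Fcgr1, Maf, Aif1, Lyz2 and Tyrobp lay between -0.65 and -0.23. The 10 neutrophil markers summed to 216 to 284.75 CPM with valinomycin and 285.19 to 325 CPM with IL-4, ranges that met without overlap, with Ly6g, a defining marker, at or below 0.312 CPM in every library. Lymphocyte markers summed to 0.92 to 1.84 CPM with valinomycin and 0.80 to 1.09 CPM with IL-4, and stromal markers to 0.77 to 2.56 CPM and 1.87 to 2.62 CPM. Dendritic cell markers summed to 2.98 to 3.60 CPM with valinomycin and 3.67 to 5.58 CPM with IL-4, and mast cell and basophil markers to 1.28 to 1.97 CPM and 0.78 to 1.22 CPM. The erythroid and megakaryocyte list summed to 213 to 270 CPM with valinomycin and 187 to 306 CPM with IL-4, nearly all of it from the transferrin receptor Tfrc. In bulk RNA, fewer cells of a type and less RNA per cell cannot be told apart.

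The regulators of the integrated stress response were higher as a group under valinomycin. Of 18 listed genes 16 were tested, and 13 were called higher, with a median log2 fold change of 1.47. The number lower was 0 by edgeR, by DESeq2 and at an unadjusted p under 0.05. Against PGE2, 11 were called higher and 3 lower. The list holds known targets of ATF4, as do the lists for amino acid synthesis, amino acid uptake and tRNA charging below. An ATF4 site is a joined C/EBP and ATF element, and the letters TGATGNAA, or TTNCATCA on the other strand, were searched in the 250 bases before the start of each gene in RefSeq promoters on GRCm38.p6. The windows of 6 listed genes that were called higher are shown because they carry the letters and span the groups described next. Each runs 5′ to 3′ on the strand of its gene, with the matched letters in capitals.

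The promoter windows, named by gene, position and strand, were as follows.
Chac1, chr2:119351009-119351096, plus strand: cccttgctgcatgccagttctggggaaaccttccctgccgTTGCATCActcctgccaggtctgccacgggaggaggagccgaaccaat
Nupr1, chr7:126625533-126625620, minus strand: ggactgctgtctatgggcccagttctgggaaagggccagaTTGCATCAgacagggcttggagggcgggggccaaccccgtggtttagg
Atf3, chr1:191183396-191183483, minus strand: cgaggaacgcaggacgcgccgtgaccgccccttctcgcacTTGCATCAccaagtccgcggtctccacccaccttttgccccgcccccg
Asns, chr6:7693210-7693272, minus strand: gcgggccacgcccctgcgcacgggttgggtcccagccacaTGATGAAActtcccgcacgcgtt
Aars, chr8:111033690-111033777, plus strand: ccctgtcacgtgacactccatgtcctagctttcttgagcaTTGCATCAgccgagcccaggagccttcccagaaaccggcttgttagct
Slc7a11, chr3:50443614-50443719, minus strand: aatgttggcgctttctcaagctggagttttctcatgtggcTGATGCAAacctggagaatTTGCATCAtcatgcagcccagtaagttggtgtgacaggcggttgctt

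In Slc7a11 the letters occur at 66 and at 47 bases before the start, once on each strand, and in Asns at 23 bases. Among all 27025 RefSeq promoters 1056 (3.91%) held the letters, and among the 9601 tested genes with a promoter 240 (2.50%) did. They were found in 5 of 15 integrated stress response regulators with a promoter, 3 of 14 amino acid synthesis genes, 2 of 11 amino acid transporters and 3 of 13 cytosolic tRNA synthetases, which makes 13 of 53 (24.5%) over the 4 lists. Of all tested genes called higher with valinomycin 69 of 1982 (3.48%) held them, of those at least 2-fold higher 12 of 139 (8.63%), of those called lower 37 of 1908 (1.94%) and of those not called 134 of 5711 (2.35%). The match is a description of the letters and not of binding.

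Atf4 itself, the central transcription factor of the response (chromosome 15, 80255184 to 80257541, GRCm38), had 576, 551 and 484 CPM with valinomycin, 164, 162 and 174 CPM with PGE2, and 176, 186 and 179 CPM with IL-4. All 3 valinomycin libraries lay far above the others, and the log2 fold change against IL-4 was 1.57 ± 0.06 (SE, n = 3 per group, adjusted p = 8.03e-16). Ddit3, which encodes the stress factor CHOP (chromosome 10, 127290774 to 127296288), had 152, 150 and 120 CPM with valinomycin, 21.4, 19 and 22.6 CPM with PGE2, and 24.1, 24 and 25.7 CPM with IL-4. Its groups with and without valinomycin did not overlap, and it rose by 2.52 ± 0.10 on the log2 scale (SE, adjusted p = 1.34e-12). Ppp1r15a, the phosphatase subunit GADD34 that removes phosphate from eIF2α and so ends the response, had 137, 124 and 124 CPM with valinomycin, 38.7, 36.9 and 49.7 CPM with PGE2, and 26.9, 30.5 and 34.1 CPM with IL-4. It rose by 2.07 ± 0.11 (SE, adjusted p = 5.24e-09), and the other eIF2α phosphatase subunit, Ppp1r15b, by 0.72 ± 0.05 (SE, adjusted p = 2.46e-11).

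Other members called higher spanned transcription factors and effectors. Nupr1, a small stress-induced chromatin protein, had 29.9, 24.9 and 17.3 CPM with valinomycin against 4.01, 5.34 and 7.19 CPM with IL-4, a rise of 2.11 ± 0.21 (SE, adjusted p = 3.98e-06). Sesn2, a leucine-sensing inhibitor of mTORC1, had 75.6, 84.1 and 65.5 CPM with valinomycin against 21.4, 22.1 and 20.8 CPM with IL-4, a rise of 1.81 ± 0.11 (SE, adjusted p = 1.52e-09). In both genes every valinomycin library exceeded every IL-4 library. The bZIP factors Cebpb and Cebpg, partners of ATF4, rose by 1.37 ± 0.09 and 0.74 ± 0.06 (SE, adjusted p = 1.47e-07 and 2.54e-10). Chac1, which degrades glutathione, had the largest fold of the list, with 32.4, 32.8 and 22.4 CPM with valinomycin, 0.537, 0.686 and 0.875 CPM with PGE2, and 0.697, 0.638 and 1.02 CPM with IL-4. Not every member was called: Atf5, an ATF4 target tied to mitochondrial stress, had 73.5, 81.5 and 77.7 CPM with valinomycin against 62.4, 64.8 and 75.9 CPM with IL-4 (adjusted p = 0.052).

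**Figure D1:**
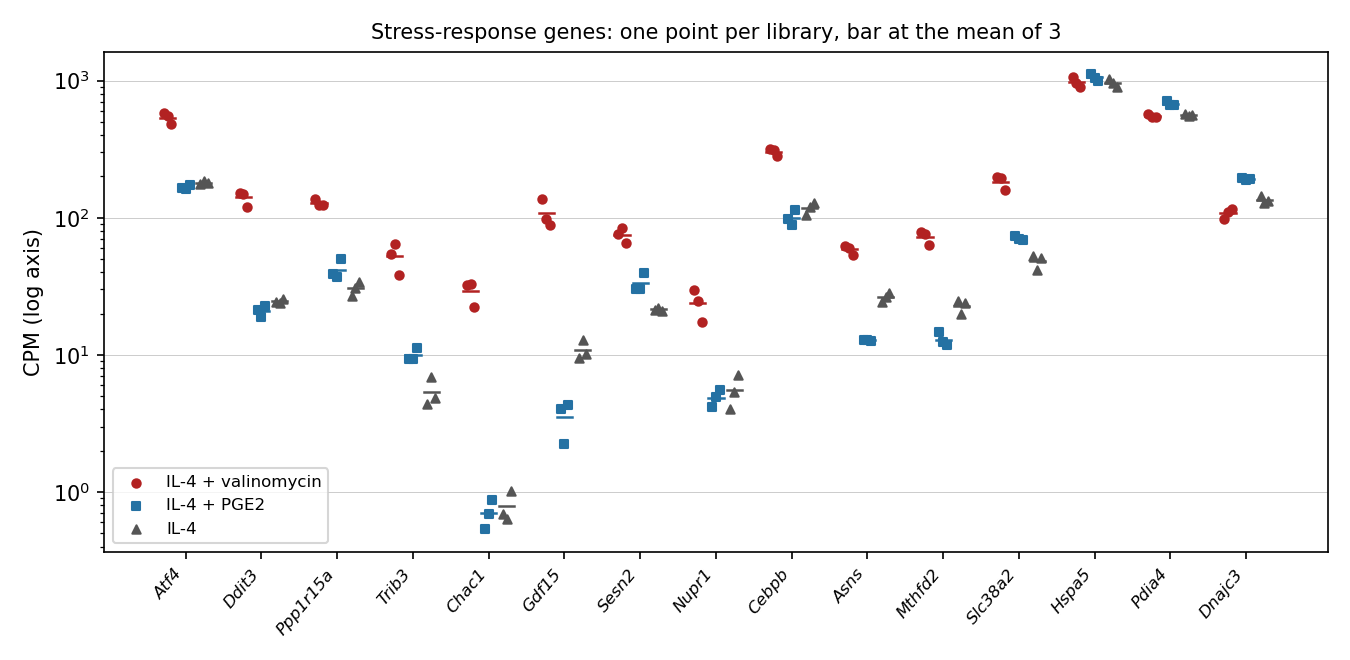
Levels of 15 stress genes in CPM (log axis) with valinomycin and IL-4, PGE2 and IL-4, and IL-4 alone; each point is 1 library and each bar the mean of 3. The valinomycin points of Atf4, Ddit3 and Ppp1r15a lie above both other groups, while those of Hspa5 and Pdia4 lie among the IL-4 points.

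Valinomycin and PGE2 stood on opposite sides of IL-4 for some regulators and on the same side for others. Atf3, an early stress repressor, had 1306, 1323 and 1288 CPM with valinomycin, 180, 185 and 185 CPM with PGE2, and 700, 741 and 728 CPM with IL-4. It rose by 0.85 ± 0.05 against IL-4 and was higher than with PGE2 by 2.83 ± 0.05 (SE, adjusted p = 1.18e-12 and 3.53e-22). Jdp2, a bZIP repressor, had 15.9, 19 and 15.3 CPM with valinomycin, 44.6, 47.8 and 51.2 CPM with PGE2, and 7.59, 10.3 and 8.44 CPM with IL-4. Both agents therefore stood above IL-4, and valinomycin was lower than PGE2 by a log2 difference of -1.51 ± 0.09 (SE, adjusted p = 1.32e-12). Ddit4, an mTORC1 inhibitor, had 9.71, 19.9 and 17.1 CPM with valinomycin, 29.9, 33.8 and 40.4 CPM with PGE2, and 6.89, 10.2 and 6.72 CPM with IL-4. 1 of the valinomycin libraries lay inside the IL-4 range, and the call against IL-4 was near its threshold (0.96 ± 0.29, SE, adjusted p = 0.0253).

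The kinases that start the response were not raised as a group. Of 14 sensors and eIF2 factors, 2 were called higher and 4 lower. Eif2ak3, which encodes the ER kinase PERK, fell by 0.31 ± 0.07, and Eif2ak2, which encodes PKR, the kinase that responds to double-stranded RNA, fell by 0.59 ± 0.07 (SE, adjusted p = 0.0011 and 1.76e-07). Eif2ak2 had 38.3, 46.4 and 40.8 CPM with valinomycin, 90.8, 86.2 and 84.3 CPM with PGE2, and 63.8, 61.1 and 63.7 CPM with IL-4, with no overlap between the groups. The genes of the relay from mitochondria were not called: Oma1, a protease of the inner membrane, had a log2 fold change of -0.06 (adjusted p = 0.593), Dele1, which carries the signal to the cytosol, -0.01 (adjusted p = 0.891), and Eif2ak1, which encodes the kinase HRI, -0.09 (adjusted p = 0.205). Eif2ak4, which encodes GCN2, was called higher by 0.20 ± 0.06 (SE, adjusted p = 0.0115), but not without IL-4 replicate 2, which left Ppp1r15b as the 1 gene of the list called higher.

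Single genes of amino acid synthesis rose. Of 17 listed genes 15 were tested, and 4 were called higher and 1 lower, beside 19.4% and 18.9% of all tested genes. The number higher was 7 without valinomycin replicate 3. The 1 lower was lost by DESeq2, with no filter and with the 6 libraries alone. It was also lost without valinomycin replicate 2 or 3 or IL-4 replicate 1 or 3, and the number lower was 2 with upper quartile scaling. Mthfd2, a mitochondrial enzyme of one-carbon metabolism (chromosome 6, 83305691 to 83325908), had 79.2, 76.0 and 63.5 CPM with valinomycin, 14.6, 12.4 and 11.8 CPM with PGE2, and 24.9, 19.9 and 23.7 CPM with IL-4, a rise of 1.68 ± 0.09 (SE, adjusted p = 6.06e-12). Asns, asparagine synthetase, had 62.6, 60.1 and 53.4 CPM with valinomycin, 12.9, 12.8 and 12.6 CPM with PGE2, and 24.4, 26.6 and 28.3 CPM with IL-4, a rise of 1.15 ± 0.07 (SE, adjusted p = 2.16e-11). In both genes the valinomycin libraries were highest and the PGE2 libraries lowest. Aldh18a1, an enzyme of proline synthesis, rose by 0.47 ± 0.09. In serine synthesis, 2 genes were not called against IL-4: Phgdh, the first enzyme of the path, had 24.1, 24.4 and 16.2 CPM with valinomycin, 6.75, 7.46 and 6.42 CPM with PGE2, and 15.8, 19.3 and 19.4 CPM with IL-4 (adjusted p = 0.14), and Psat1 had a log2 fold change of -0.05 (adjusted p = 0.602). Against PGE2, Phgdh was higher by 1.64.

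Amino acid transporters followed with 8 of 16 tested genes called higher and 1 lower (2 lower without valinomycin replicate 1, and 3 with upper quartile scaling), of 18 listed. Slc38a2, a sodium-coupled carrier of small neutral amino acids (chromosome 15, 96687392 to 96699730), had 198, 194 and 158 CPM with valinomycin, 73.8, 70.0 and 68.6 CPM with PGE2, and 52.4, 41.6 and 51.0 CPM with IL-4. It rose by 1.93 ± 0.09 (SE, adjusted p = 4.09e-10), with valinomycin above both other groups in every library. Slc3a2, the heavy chain shared by several exchangers, had 827, 794 and 700 CPM with valinomycin against 413, 455 and 435 CPM with IL-4, a rise of 0.83 ± 0.05 (SE, adjusted p = 1.57e-11). Slc7a5, the large neutral amino acid exchanger that pairs with Slc3a2, had 46.8, 43.0 and 33.3 CPM with valinomycin, 5.29, 5.41 and 3.99 CPM with PGE2, and 28.2, 20.2 and 25.7 CPM with IL-4. It rose by 0.73 ± 0.13 against IL-4 (SE, adjusted p = 0.000519) and was higher than with PGE2 by 3.05 ± 0.18. Slc7a11, the cystine carrier whose promoter holds the letters on both strands, had 20.0, 18.7 and 18.4 CPM with valinomycin, 17.6, 22.7 and 24.8 CPM with PGE2, and 13.3, 12.1 and 12 CPM with IL-4, a rise of 0.61 ± 0.11 against IL-4. Slc1a4, a carrier of alanine and serine, rose by 1.55 ± 0.25 at 4.09 to 6.34 CPM with valinomycin and 1.33 to 2.23 CPM with IL-4.

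Cytosolic tRNA synthetases, which charge tRNAs with amino acids, were called higher for 12 of 20 genes and lower for 2, with a median log2 fold change of 0.18. Cars, for cysteine, had 78.6, 78.6 and 73.2 CPM with valinomycin, 43.0, 42.4 and 39.3 CPM with PGE2, and 37.7, 39.2 and 39.5 CPM with IL-4, a rise of 0.98 ± 0.06 (SE, adjusted p = 3.67e-12). Aars, for alanine, had 192, 195 and 174 CPM with valinomycin against 114, 111 and 115 CPM with IL-4, a rise of 0.72 ± 0.05 (SE, adjusted p = 4.83e-11). Valinomycin and IL-4 libraries did not overlap in either gene. Yars, Nars and Sars had log2 fold changes of 0.54, 0.48 and 0.46, and Kars, for lysine, fell by 0.21 ± 0.05. Wars was the other gene called lower, at -0.18. That call was lost by DESeq2, with no filter and with the 6 libraries alone. It was also lost without valinomycin replicate 2 or 3 or IL-4 replicate 2 or 3. The mitochondrial tRNA synthetases, encoded by separate nuclear genes with few exceptions, had 2 genes called higher and 3 lower of 17. Wars2 and Fars2 rose by 0.46 and 0.40. The number called lower was 0 by DESeq2, with no filter, with the 6 libraries alone and without valinomycin replicate 3. It was 1 without valinomycin replicate 2, and 5 with upper quartile scaling or library totals alone.

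The ER unfolded protein response acts on chaperones and degradation genes of the ER, and its members did not move one way. Hspa5, which encodes the chaperone BiP, had 1069, 959 and 899 CPM with valinomycin, 1112, 1052 and 999 CPM with PGE2, and 1023, 965 and 899 CPM with IL-4, and the groups overlapped (adjusted p = 0.826). Hsp90b1, Pdia4 and Xbp1 had log2 fold changes of -0.02, -0.02 and 0.05. Of 21 genes of the ER unfolded protein response 3 were called higher and 8 lower, with 4 lower without valinomycin replicate 2, 2 without valinomycin replicate 3 and 3 without IL-4 replicate 1. Herpud1, of ER-associated degradation, had 65.0, 58.7 and 43.7 CPM with valinomycin, 32, 27.5 and 27.6 CPM with PGE2, and 25.5, 19.8 and 20.6 CPM with IL-4, a rise of 1.35 ± 0.14 (SE, adjusted p = 5.57e-06). Ern1, which encodes the ER sensor IRE1α, rose by 1.32 ± 0.10 (SE, adjusted p = 2.24e-07), with 238, 223 and 231 CPM with valinomycin against 87.3, 96.6 and 94.0 CPM with IL-4. Both genes were high in all 3 valinomycin libraries. Dnajc3, an ER co-chaperone, fell by 0.33 ± 0.06 (SE, adjusted p = 7.86e-05). The other 7 called lower had log2 fold changes between -0.29 (Creld2) and -0.12 (Sel1l), with the chaperone Calr at -0.19.

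Cytosolic heat shock genes moved in both directions, 3 higher and 4 lower of 10. Hspa1a, an inducible HSP70 gene, had 105, 71.2 and 64.0 CPM with valinomycin, 12.3, 10.6 and 18.1 CPM with PGE2, and 13.4, 9.09 and 9.45 CPM with IL-4, a rise of 2.92 ± 0.26 (SE, adjusted p = 2.79e-05). Its near-identical neighbour Hspa1b had 73.2, 47.2 and 49.0 CPM with valinomycin against 11.5, 9.73 and 9.37 CPM with IL-4, a rise of 2.48 ± 0.19 (SE, adjusted p = 1.77e-06). Reads may be split between these copies, so their single values are uncertain, but every valinomycin library lay above every IL-4 library in both. Hspa8, the constitutive HSC70, fell by 0.46 ± 0.06, and Dnajb1, an HSP40 co-chaperone that heat shock factor also drives, by 0.51 ± 0.07. Hsf1, which encodes that factor, had a log2 fold change of 0.14 (adjusted p = 0.123).

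Both ribosomal RNAs of the mitochondrial genome were present at far higher counts with valinomycin. mt-Rnr2, the large rRNA (chromosome M, 1094 to 2675), had 5345, 4958 and 5774 CPM with valinomycin, 215, 220 and 243 CPM with PGE2, and 193, 111 and 214 CPM with IL-4. mt-Rnr1, the small rRNA (chromosome M, 70 to 1024), had 2570, 2664 and 2748 CPM with valinomycin, 108, 111 and 129 CPM with PGE2, and 96.5, 78.8 and 111 CPM with IL-4. The groups were far apart, with log2 fold changes of 4.96 ± 0.23 and 4.80 ± 0.11 against IL-4 (SE, adjusted p = 4.3e-07 and 4.42e-12). The ratio of mt-Rnr2 to mt-Rnr1 was 2.08, 1.86 and 2.10 with valinomycin, 2.00, 1.98 and 1.88 with PGE2, and 2.00, 1.41 and 1.93 with IL-4, where IL-4 replicate 2 stood low. Their sum was 7915, 7623 and 8522 CPM with valinomycin, 323, 331 and 372 CPM with PGE2, and 289, 190 and 325 CPM with IL-4, while unstimulated cells had 379, 411 and 437 CPM.

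Messenger RNAs of the same genome did not share this rise. Of 13 protein genes 8 were tested, and 4 were called lower. The number higher was 0 by edgeR, by DESeq2 and at an unadjusted p under 0.05, and 1 by edgeR without IL-4 replicate 1. The other 5 were near 0 counts and are not described. mt-Cytb, of complex III, had 1256, 1225 and 1291 CPM with valinomycin, 2030, 2045 and 1985 CPM with PGE2, and 2065, 1509 and 2054 CPM with IL-4, and fell by 0.58 ± 0.10 (SE, adjusted p = 0.000729). mt-Nd4, of complex I, had 526, 519 and 557 CPM with valinomycin, 734, 799 and 757 CPM with PGE2, and 761, 603 and 785 CPM with IL-4, and fell by 0.42 ± 0.08 (SE, adjusted p = 0.000635). In both, each valinomycin library lay below each IL-4 library, and IL-4 replicate 2 was the lowest of its group. mt-Co1, of complex IV, had 6294, 6483 and 6904 CPM with valinomycin against 7096, 6347 and 7393 CPM with IL-4, groups that overlapped (adjusted p = 0.249). The summed rRNA per summed protein-gene level was 0.753, 0.721 and 0.743 with valinomycin, 0.023, 0.023 and 0.026 with PGE2, and 0.021, 0.017 and 0.024 with IL-4.

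**Figure D2:**
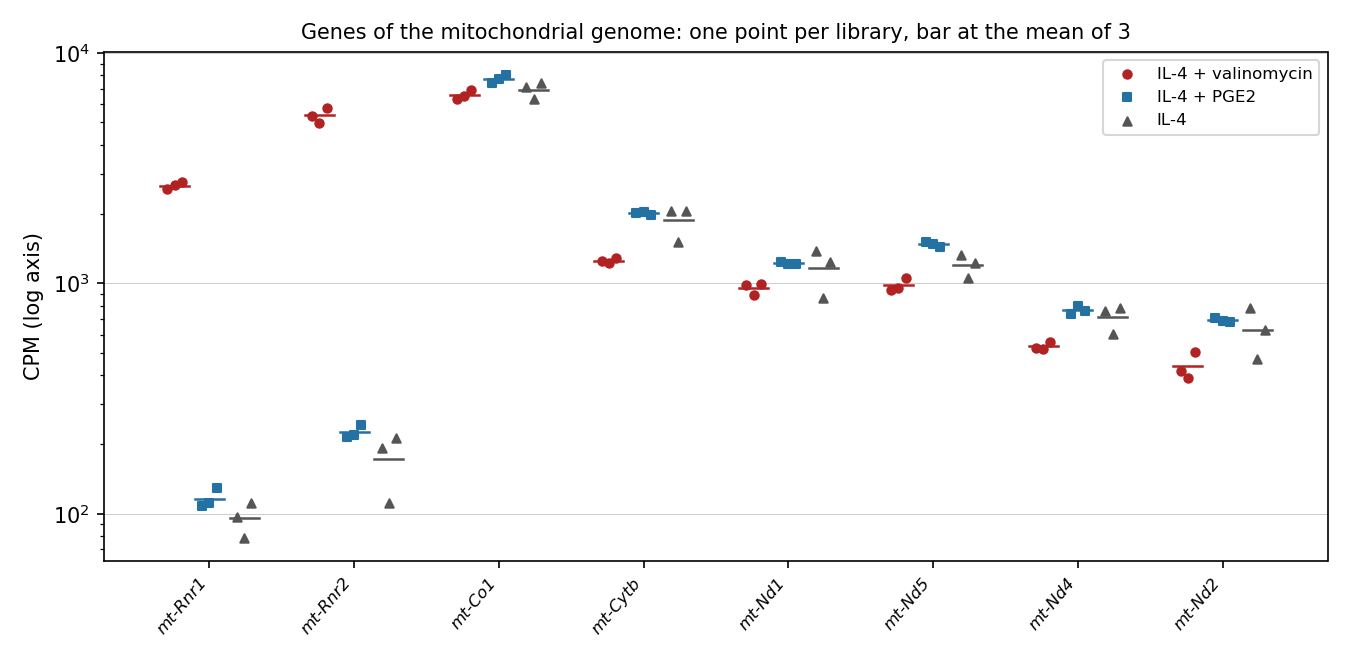
Levels of the 2 mitochondrial ribosomal RNAs and 6 mitochondrial messenger RNAs in CPM (log axis) with valinomycin and IL-4, PGE2 and IL-4, and IL-4 alone; each point is 1 library and each bar the mean of 3. mt-Rnr1 and mt-Rnr2 stand apart with valinomycin, and mt-Cytb and mt-Nd4 lie below the IL-4 points.

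The libraries were made with a kit that selects polyadenylated RNA, so rRNA counts measure what passed that selection. Other classes of RNA without long poly(A) tails had low counts, with no difference of that size. Nuclear rRNA had 49 counts over the 3 valinomycin libraries, 53 over the PGE2 libraries and 41 over the IL-4 libraries. Small nucleolar RNA had 2042, 1435 and 1946, small nuclear RNA 325, 259 and 231, and mitochondrial tRNA 29, 53 and 35. Counts this low could hardly show a change in what passed the selection, so nothing is concluded from them. Of the 6 tested genes listed as RNAs without poly(A) tails, 0 were called in either direction by edgeR, by DESeq2 or at an unadjusted p under 0.05. Without valinomycin replicate 1, 1 was called higher by edgeR. The list holds the histone genes Hist1h1c, at 59.3 to 77.2 CPM with valinomycin, Hist1h2bc and Hist1h4i. Whether their transcripts carried tails was not tested. Rn7sk, Rmrp and Rpph1 lay at or below 3.59 CPM in every valinomycin and IL-4 library. Whether polyadenylation or amount of the mitochondrial rRNAs differed was not tested. Among 29 tested genes of mitochondrial DNA expression and RNA processing, 7 were called higher and 6 lower. The number lower was 3 by DESeq2, with no filter, and without valinomycin replicate 2 or 3. Mtpap, the mitochondrial poly(A) polymerase, had 47.0, 43.9 and 45.9 CPM with valinomycin, 27, 25.7 and 25 CPM with PGE2, and 31.6, 29.2 and 29 CPM with IL-4, and rose by 0.61 ± 0.07 (SE, adjusted p = 2.58e-07). Polg, the mitochondrial DNA polymerase, fell by 0.38 ± 0.06, and the transcription genes Tfam and Polrmt had log2 fold changes of 0.07 (adjusted p = 0.523) and -0.04 (adjusted p = 0.645).

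Nuclear genes of the respiratory chain were mostly lower, by small amounts. Of 78 tested subunits 53 were called lower, 77 had a log2 fold change below 0, and the median was -0.25. The number higher was 0 by edgeR, by DESeq2 and at an unadjusted p under 0.05. By complex, 25 of 37 genes of complex I fell, 3 of 4 of complex II, 6 of 9 of complex III, 6 of 11 of complex IV (10 with upper quartile scaling) and 13 of 17 of complex V, the ATP synthase. Ndufb7, of complex I (chromosome 8, 83566671 to 83571626), had 48.5, 47.3 and 47.8 CPM with valinomycin, 58.9, 58.0 and 51.1 CPM with PGE2, and 60.9, 74.5 and 67.3 CPM with IL-4, and fell by 0.50 ± 0.07 (SE, adjusted p = 3.46e-06). Atp5g1, for a membrane ring subunit of the ATP synthase, had 45.6, 43.1 and 39.5 CPM with valinomycin, 41.9, 45.4 and 45.5 CPM with PGE2, and 58.5, 57.6 and 59.4 CPM with IL-4, and fell by 0.45 ± 0.07 (SE, adjusted p = 1.5e-05). Valinomycin libraries were the lower ones against IL-4 in both genes, and in Atp5g1 they overlapped the PGE2 libraries. Cox7a2, of complex IV, fell by 0.36 ± 0.05 and Sdhb, of complex II, by 0.32, while Sdha had -0.05 (adjusted p = 0.381). Against PGE2 14 of the 78 were called higher and 28 lower, beside 31.5% and 31.7% of all tested genes.

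Transcript length moved with the valinomycin effect over tested nuclear protein-coding genes, and respiratory chain transcripts are short, with a median of 746 bases. The 11435 such genes with a transcript length were divided by that length into 5 bins. The 2290 genes of the shortest bin, 255 to 1533 bases, had a median log2 fold change of -0.14 with 7.29% called higher and 30.9% lower, and the 2286 genes of the longest bin, 4362 bases and over, a median of 0.08 with 33.2% higher and 13.2% lower. The medians of the single valinomycin libraries against the IL-4 mean were -0.10, -0.11 and -0.16 in the shortest bin, and those of the IL-4 libraries lay within 0.03 of 0 there. In the longest bin they were 0.061, 0.095 and 0.084 with valinomycin and 0.038, -0.036 and -0.005 with IL-4. Each IL-4 library is itself part of that mean, so its value is drawn toward it. Within the shortest bin, the 64 respiratory chain genes had a median of -0.26 with 45 called lower, against 707 of 2290 over the whole bin. The 74 cytosolic ribosomal protein genes of the same bin had a median of -0.04 with 3 called lower, and the 49 mitochondrial ribosomal protein genes -0.18 with 23 called lower. The part of length in the result was not tested beyond these values.

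**Figure D3:**
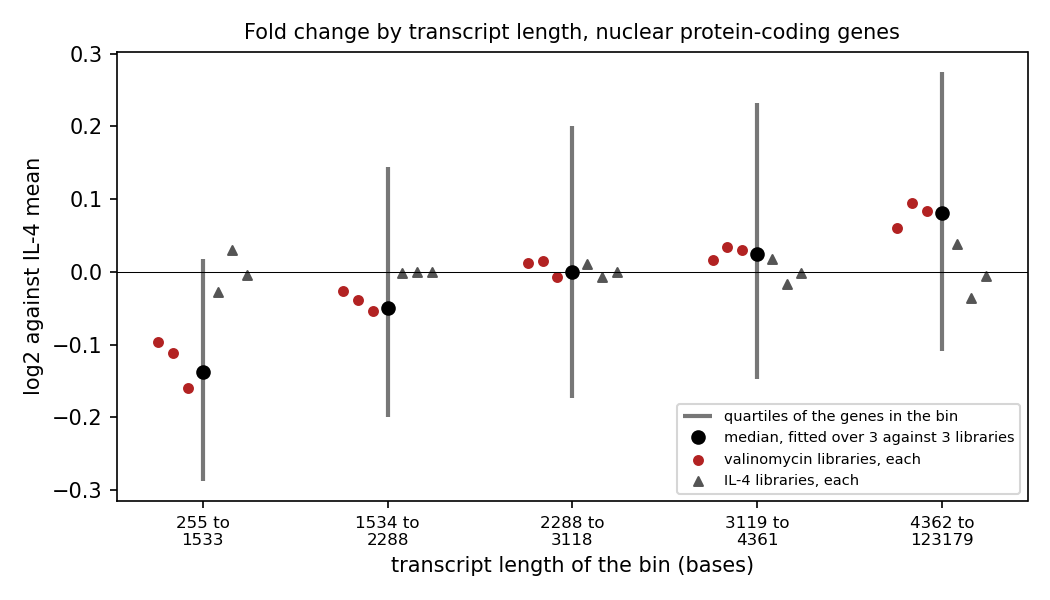
Log2 level of tested nuclear protein-coding genes against the IL-4 mean in 5 bins of transcript length, from shortest to longest. Vertical bars give the quartiles over genes of the fold change. Red points are the medians of the 3 valinomycin libraries and triangles those of the 3 IL-4 libraries. The valinomycin medians lie below 0 in the shortest bin, at -0.10 to -0.16, and above 0 in the longest, at 0.06 to 0.10.

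Other mitochondrial systems were mixed. Of 77 tested mitochondrial ribosomal proteins 5 were called higher and 31 lower, with 19 lower without valinomycin replicate 3. The number higher was 3 by DESeq2, with upper quartile scaling and without valinomycin replicate 2, and 8 with no filter. Of 21 tested genes of protein import 1 was called higher and 7 lower (12 lower with upper quartile scaling), among them Tomm5, a subunit of the outer membrane channel, which had 37.7, 31.3 and 31.5 CPM with valinomycin, 28.1, 29.2 and 27 CPM with PGE2, and 52.3, 51.7 and 52.8 CPM with IL-4, and fell by 0.64 ± 0.07 (SE, adjusted p = 1.07e-07). Mitochondrial chaperones and proteases had 5 genes called higher and 3 lower of 21 (5 lower with upper quartile scaling or library totals alone). Hspa9, the motor of import and a chaperone of the matrix, had 401, 376 and 343 CPM with valinomycin, 167, 161 and 172 CPM with PGE2, and 309, 292 and 305 CPM with IL-4, a rise of 0.31 ± 0.05 (SE, adjusted p = 4.47e-05). Its groups did not overlap, and against PGE2 it was higher by 1.17. The chaperonin genes Hspd1 and Hspe1 had log2 fold changes of -0.03 each (adjusted p = 0.727 and 0.746), and Lonp1, the matrix protease, rose by 0.21. Phb and Phb2, the prohibitins of the inner membrane, fell by 0.32 and 0.31.

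Of 19 genes of mitochondrial dynamics and mitophagy 6 were called higher and 2 lower. The number lower was 1 by DESeq2, with no filter and with the 6 libraries alone. It was also 1 without valinomycin replicate 1 or 2 or IL-4 replicate 1 or 2. Optn, which encodes optineurin, a receptor that brings ubiquitin-tagged cargo to autophagosomes (chromosome 2, 5020642 to 5064051), had 52.7, 49.1 and 47.8 CPM with valinomycin, 16.5, 18.1 and 17.7 CPM with PGE2, and 16.2, 29.3 and 21.6 CPM with IL-4, a rise of 1.15 ± 0.17 (SE, adjusted p = 0.000401). Sqstm1, which encodes p62, had 633, 617 and 570 CPM with valinomycin, 341, 342 and 373 CPM with PGE2, and 335, 388 and 392 CPM with IL-4, a rise of 0.71 ± 0.06 (SE, adjusted p = 9.51e-10). Both were high in valinomycin libraries alone. Tax1bp1, another such receptor, had 285, 287 and 285 CPM with valinomycin, 452, 461 and 435 CPM with PGE2, and 230, 228 and 232 CPM with IL-4, above IL-4 by 0.31 ± 0.04 and below PGE2 by a log2 difference of -0.65. Pink1, the kinase that builds up on depolarised mitochondria as a protein, had a log2 fold change of -0.06 (adjusted p = 0.467).

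Genes of lysosomes and autophagy were called higher for 14 of 28 and lower for 3. Fnip1 (chromosome 11, 54438199 to 54518235) and Flcn encode partners in the folliculin complex, which signals amino acid supply from the lysosome to mTORC1 and to the TFEB family. Fnip1 had 205, 191 and 210 CPM with valinomycin, 78.7, 77.1 and 82.9 CPM with PGE2, and 80.9, 69.7 and 75.9 CPM with IL-4, a rise of 1.42 ± 0.06 (SE, adjusted p = 5.99e-15). Flcn had 192, 163 and 171 CPM with valinomycin, 95.3, 98.4 and 99.3 CPM with PGE2, and 94.2, 94.9 and 94.1 CPM with IL-4, a rise of 0.90 ± 0.06 (SE, adjusted p = 9.27e-12). In both, PGE2 libraries lay near IL-4 libraries and valinomycin libraries above all of them. The transcription factors Tfeb and Mitf rose by 0.54 ± 0.07 and 0.58 ± 0.05, and Rragd, a RAG GTPase of the same pathway, by 0.60. Membrane proteins and hydrolases of the lysosome were mixed. Lamp1, Ctsb and Ctsd were not called, with log2 fold changes of 0.03, -0.06 and -0.17, while the hydrolase Gla rose by 0.45, Hexa fell by 0.18, and Lamp2 was called higher by 0.13, a call lost without valinomycin replicate 3 or IL-4 replicate 2 or 3 and with upper quartile scaling.

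**Figure D4:**
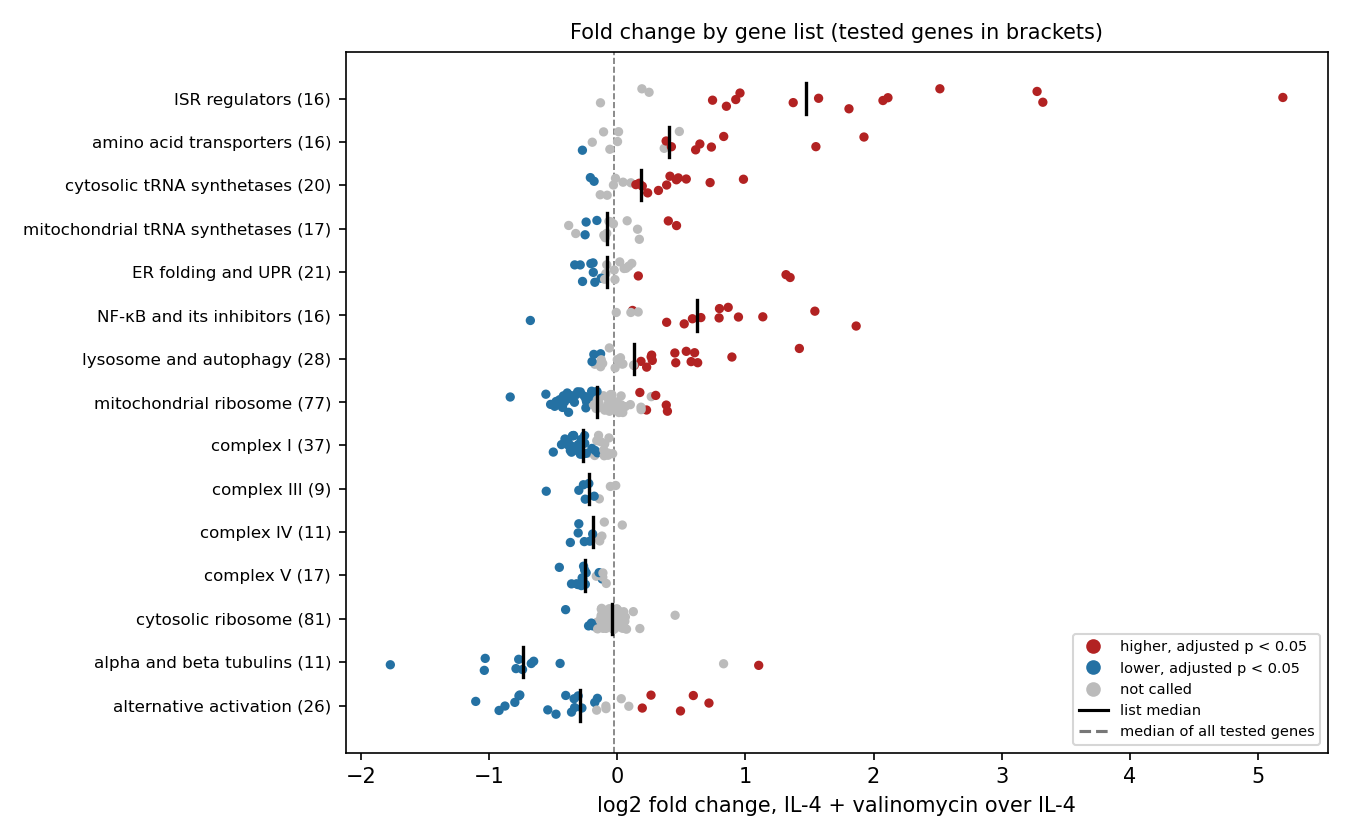
Log2 fold change of valinomycin over IL-4 for each tested gene of 15 lists; red points were called higher, blue points lower and grey points not called, the bar marks the median of the list and the dashed line the median of all tested genes. The integrated stress response regulators lie mostly above 0, with a median of 1.47, and the respiratory chain mostly below it.

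Genes of cell damage and death control were also raised in part, 9 higher and 2 lower of 18. Gadd45a, a growth arrest gene (chromosome 6, 67035096 to 67037457), had 187, 175 and 182 CPM with valinomycin, 37.7, 42.3 and 57.0 CPM with PGE2, and 30.2, 37.5 and 34.5 CPM with IL-4, a rise of 2.41 ± 0.12 (SE, adjusted p = 2.75e-08). Bbc3, which encodes the cell death protein PUMA, had 32.7, 29.8 and 28 CPM with valinomycin, 7.90, 9.27 and 7.98 CPM with PGE2, and 12.6, 13.4 and 13.6 CPM with IL-4, a rise of 1.19 ± 0.09. The valinomycin libraries were highest in both. Cdkn1a, the cell cycle inhibitor p21 and a p53 target, had 492, 496 and 547 CPM with valinomycin against 481, 433 and 503 CPM with IL-4, groups that overlapped (adjusted p = 0.109), and Bax had -0.03 (adjusted p = 0.68). Sesn1, a p53 target and relative of Sesn2, fell by 0.98 ± 0.06 (SE, adjusted p = 8.58e-12). The survival genes Bcl2l1 and Mcl1 rose by 0.69 and 0.39.

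Regulators of NF-kB were called higher for 12 of 16 genes and lower for 1. Nfkbia, which encodes the inhibitor IκBα and is itself an NF-kB target (chromosome 12, 55489410 to 55492647), had 187, 138 and 143 CPM with valinomycin, 76.8, 71.2 and 76.2 CPM with PGE2, and 52.3, 53.3 and 55.2 CPM with IL-4, a rise of 1.54 ± 0.10 (SE, adjusted p = 4.55e-08). Rel, a subunit, had 49.4, 48.2 and 47.4 CPM with valinomycin, 23.9, 23.3 and 20.9 CPM with PGE2, and 23.3, 21.2 and 21.6 CPM with IL-4, a rise of 1.14 ± 0.08 (SE, adjusted p = 6.38e-11). Tnfaip3, the deubiquitinase A20 that limits the pathway, rose by 0.95 ± 0.07. These genes were high in all valinomycin libraries. Rela had a log2 fold change of 0.11 (adjusted p = 0.093), and Nfkbid, an atypical inhibitor, fell by 0.68 ± 0.07.

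Secreted mediators did not move one way. Of 19 listed cytokine genes 13 were tested, with 5 called higher and 2 lower, and of 19 chemokines 17 were tested, with 3 higher and 5 lower. Log2 fold changes of the tested chemokines ran from -0.98 to 3.09. Tnf had 43.2, 32.3 and 35.8 CPM with valinomycin, 14.3, 14.3 and 14.8 CPM with PGE2, and 16.7, 16.9 and 21.2 CPM with IL-4, a rise of 1.02 ± 0.10 (SE, adjusted p = 2.95e-08). Osm, a cytokine of the IL-6 family, had 42.6, 34.2 and 37.4 CPM with valinomycin, 37.7, 31.8 and 33.8 CPM with PGE2, and 8.81, 12.4 and 10.9 CPM with IL-4, so that both agents stood above IL-4 and overlapped each other. Ccl2, a monocyte chemokine, fell by 0.98 ± 0.15 with 197, 149 and 183 CPM with valinomycin, 279, 205 and 235 CPM with PGE2, and 359, 311 and 371 CPM with IL-4 (SE, adjusted p = 0.000925). Il10 fell by 0.86 ± 0.16, with 4.20, 4.29 and 5.53 CPM with valinomycin, 15, 12.2 and 13.6 CPM with PGE2, and 8.46, 7.09 and 9.84 CPM with IL-4 (SE, adjusted p = 0.000186). Il1b lay at 0.60 to 1.12 CPM with valinomycin and 0.61 to 0.937 CPM with IL-4. Of 28 interferon response genes 8 were called lower, beside 18.9% of all tested genes. The number lower was 4 without valinomycin replicate 1, 5 without valinomycin replicate 3 and 2 without IL-4 replicate 3. The number higher was 0 by edgeR and at an unadjusted p under 0.05, and 1 by DESeq2.

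Immediate early genes, which growth factors and stress switch on within minutes, split into 9 higher and 8 lower of 27. Dusp1, a phosphatase of p38 and JNK, had 141, 139 and 141 CPM with valinomycin, 83.4, 88.2 and 110 CPM with PGE2, and 52.4, 52.1 and 64.1 CPM with IL-4, a rise of 1.32 ± 0.10. Dusp8, another phosphatase of that family and among the genes with the highest fold changes, had 10.3, 8.40 and 9.06 CPM with valinomycin, 1.92, 1.29 and 0.973 CPM with PGE2, and 0.959, 1.12 and 1.02 CPM with IL-4, a rise of 3.16 ± 0.20 (SE, adjusted p = 1.88e-11). Among those lower, Arc, a neuronal plasticity gene, had 4.28, 3.86 and 6.09 CPM with valinomycin against 18, 12.5 and 16 CPM with IL-4, a fall of 1.70 ± 0.16, and Npas4, an activity-induced factor, fell by 1.48 ± 0.12 (SE). Egr3, also called lower, lay at 0 to 0.16 CPM with valinomycin and 0.697 to 1.09 CPM with IL-4. Dusp6, the phosphatase of ERK, and Myc were lower too. Dusp6 fell by 0.93 ± 0.08, with 57.5, 62.2 and 74.1 CPM with valinomycin, 179, 172 and 161 CPM with PGE2, and 122, 114 and 133 CPM with IL-4. Myc fell by 0.80 ± 0.08, with 56.4, 57.4 and 53.2 CPM with valinomycin against 103, 87.8 and 99.5 CPM with IL-4, and its valinomycin and PGE2 libraries overlapped.

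Genes of alternative activation were lower for 16 of 26 tested genes and higher for 5, with a median log2 fold change of -0.29. Socs1, a feedback inhibitor of IL-4 signalling, had 53.8, 62.7 and 60.7 CPM with valinomycin, 124, 99.7 and 110 CPM with PGE2, and 105, 113 and 106 CPM with IL-4, and fell by 0.88. Batf3, a bZIP factor, had 20.1, 21.9 and 18.6 CPM with valinomycin, 3.14, 2.49 and 2.92 CPM with PGE2, and 37.8, 32.8 and 32.4 CPM with IL-4, and fell by 0.77. Both genes were below IL-4 in every valinomycin library. Pparg, a nuclear receptor of lipid metabolism that IL-4 induces, had 144, 139 and 125 CPM with valinomycin, 23.9, 22 and 23.9 CPM with PGE2, and 80.4, 87.7 and 80.2 CPM with IL-4, a rise of 0.72 ± 0.06, and it was higher than with PGE2 by 2.55. The receptor and signal genes Il4ra and Stat6 had log2 fold changes of -0.09 (adjusted p = 0.161) and 0.03 (adjusted p = 0.595), and Mrc1, the mannose receptor, -0.09 (adjusted p = 0.268).

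The circadian clock and the tubulins, 2 sets chosen after gene values had been seen, are given as description. The other lists too were chosen with earlier results of these data known. Of 20 tested clock genes 13 were called higher, with a median log2 fold change of 0.67, and the number lower was 0 by edgeR, by DESeq2 and at an unadjusted p under 0.05. Bhlhe41, a repressor of the clock (chromosome 6, 145858243 to 145865558), had 167, 151 and 148 CPM with valinomycin, 21.1, 17.8 and 24.8 CPM with PGE2, and 30.9, 37.3 and 35.9 CPM with IL-4. Nr1d1, which encodes the heme receptor REV-ERBα, had 22, 23.5 and 21.7 CPM with valinomycin, 4.98, 5.66 and 7.78 CPM with PGE2, and 7.59, 7.09 and 9.30 CPM with IL-4. Per1, a negative limb gene that stress hormones and calcium also drive, had 92.9, 94.3 and 102 CPM with valinomycin, 58.7, 59.6 and 65.1 CPM with PGE2, and 38.6, 43.4 and 40.2 CPM with IL-4. All 3 stood above IL-4 in every library, and the log2 fold changes were 2.16 ± 0.08, 1.48 ± 0.12 and 1.24 ± 0.06 (SE). Arntl, the core activator BMAL1, had 16.5, 12.5 and 13.3 CPM with valinomycin against 15, 13.8 and 12.8 CPM with IL-4 (adjusted p = 0.832), and Per2, Per3 and Cry2 had 0.13, -0.18 and 0.06 and were not called.

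Tubulins, the subunits of microtubules, were called lower for 9 of 11 tested alpha and beta genes and higher for 1, with a median of -0.74. Tubulin messages are known to be degraded when free tubulin subunits are abundant. Tubb4b (chromosome 2, 25222160 to 25224702) had 61.5, 62.5 and 62.3 CPM with valinomycin, 152, 143 and 130 CPM with PGE2, and 130, 124 and 126 CPM with IL-4, a log2 fold change of -1.03 ± 0.05 (SE). Tuba1a had 14.6, 17.3 and 20.0 CPM with valinomycin, 50.2, 55.3 and 52.4 CPM with PGE2, and 35.3, 39.2 and 31.9 CPM with IL-4. Tubb5 had 629, 624 and 609 CPM with valinomycin, 566, 537 and 497 CPM with PGE2, and 862, 840 and 832 CPM with IL-4. Valinomycin was below IL-4 in every library of these 3 genes, whereas against PGE2 it was lower for Tubb4b and Tuba1a and higher for Tubb5. The 1 gene called higher, Tubb2b, lay at 1.68 to 2.14 CPM with valinomycin and 0.558 to 1.22 CPM with IL-4, and its call was lost without IL-4 replicate 2. Some tubulin genes share long identical stretches, so single values are uncertain. Of 8 tested genes of gamma, delta and epsilon tubulin and the gamma tubulin complex 1 was called lower, Tubg1. The number lower was 0 by DESeq2, with no filter, and without valinomycin replicate 2 or 3 or IL-4 replicate 2. It was 2 with upper quartile scaling or library totals alone.

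**Figure D5:**
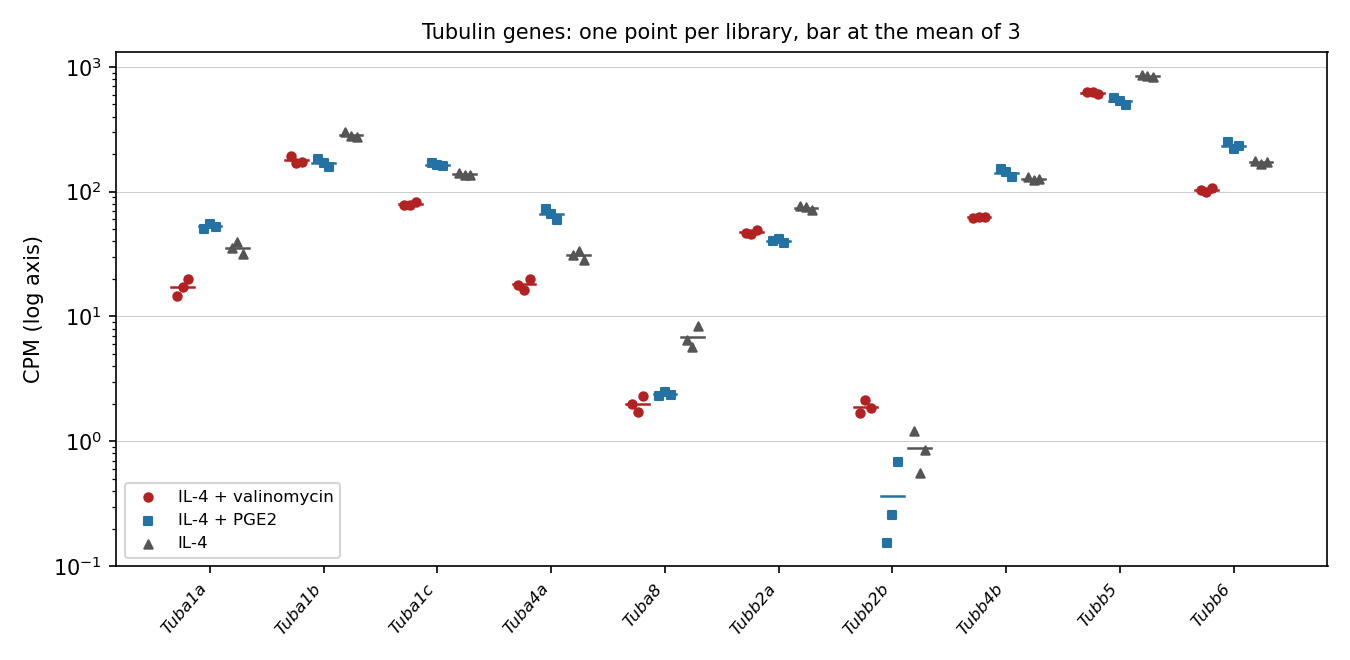
Levels of 10 alpha and beta tubulin genes in CPM (log axis) with valinomycin and IL-4, PGE2 and IL-4, and IL-4 alone; each point is 1 library and each bar the mean of 3. Valinomycin points of Tuba1a, Tuba1c, Tubb4b and Tubb6 lie below both other groups, and those of Tubb5 lie between PGE2 and IL-4.

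In carbon metabolism, 3 of 19 glycolysis genes were called higher and 1 lower, beside 19.4% and 18.9% of all tested genes. The numbers were 1 higher and 2 lower without valinomycin replicate 2, 1 higher and 4 lower without IL-4 replicate 1, and 1 higher without IL-4 replicate 3. Pfkfb3, which makes the activator of phosphofructokinase (chromosome 2, 11471433 to 11554077), had 158, 173 and 164 CPM with valinomycin, 62.2, 59.2 and 69.6 CPM with PGE2, and 64.9, 82.1 and 69.2 CPM with IL-4, a rise of 1.19 ± 0.07 (SE, adjusted p = 5.63e-10). Fatty acid oxidation had 2 of 19 genes called higher and 9 lower, with Cpt2, the inner carnitine acyltransferase, at 20.3, 21.4 and 22.9 CPM with valinomycin against 27.7, 28.4 and 28.4 CPM with IL-4, a log2 fold change of -0.39. The number higher was 1 by DESeq2, with upper quartile scaling and with library totals alone. It was also 1 without valinomycin replicate 2, IL-4 replicate 2 or IL-4 replicate 3. Insig1, which holds back sterol synthesis, rose by 1.29 ± 0.15 (SE, adjusted p = 8.54e-05) with 114, 132 and 99.3 CPM with valinomycin against 42.4, 56.5 and 41.7 CPM with IL-4, while 2 of 23 sterol synthesis genes in all were called higher and 2 lower. In polyamine metabolism 2 of 16 genes were called higher and 6 lower, with log2 fold changes from -1.55 to 0.71. Azin1, which frees ornithine decarboxylase from its inhibitor, rose by 0.71 ± 0.05, while Srm, spermidine synthase, fell by 0.44, which was not the largest fall.

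Of 20 targets of NRF2 2 were called higher and 7 lower, with 1 higher without valinomycin replicate 2 or IL-4 replicate 2, and Nfe2l2, which encodes the factor itself, had 263, 243 and 230 CPM with valinomycin, 119, 113 and 112 CPM with PGE2, and 166, 169 and 164 CPM with IL-4. It rose by 0.56 ± 0.05. Of 16 genes of the hypoxia list 3 were called higher and 1 lower. The number lower was 0 with no filter, with the 6 libraries alone, and without valinomycin replicate 2 or any 1 of the IL-4 libraries. Hif1a had 108, 98.9 and 105 CPM with valinomycin, 236, 234 and 226 CPM with PGE2, and 73.8, 69.4 and 67.0 CPM with IL-4, so that it was above IL-4 by 0.57 ± 0.05 and below PGE2 by a log2 difference of -1.15. Its groups were fully apart, with PGE2 highest. Of 21 tested genes of potassium and sodium transport 1 was called higher and 4 lower (7 lower with upper quartile scaling, and 2 higher without valinomycin replicate 1). Kcnk6, a potassium leak channel, had a log2 fold change of -0.49.

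Genes of cell growth were mostly higher with valinomycin than with PGE2 and mixed against IL-4. Of 30 cell cycle genes 6 were called higher and 12 lower against IL-4, and 26 were called higher against PGE2. Genes that license and copy DNA were among those lower than IL-4, with log2 fold changes of -0.76 for Cdc6, -0.47 for Rrm2, -0.46 for Mcm7 and -0.24 for Pcna. Mki67, a marker of cycling cells, had 321, 320 and 294 CPM with valinomycin, 192, 198 and 165 CPM with PGE2, and 250, 224 and 219 CPM with IL-4, a rise of 0.43. Of 21 ribosome biogenesis genes 3 were called higher and 4 lower against IL-4, with 1 higher without IL-4 replicate 2. The number lower was 7 with upper quartile scaling or without valinomycin replicate 1. It was 2 by DESeq2, with the 6 libraries alone, and without valinomycin replicate 2 or 3 or IL-4 replicate 1. Against PGE2, 20 were called higher, and in both lists the number lower was 0 by edgeR, by DESeq2 and at an unadjusted p under 0.05. Gnl3, nucleostemin of the nucleolus, had 153, 130 and 123 CPM with valinomycin, 26.8, 23.6 and 27.1 CPM with PGE2, and 93.5, 80.8 and 85.9 CPM with IL-4. Of 81 cytosolic ribosomal proteins 0 were called higher by edgeR and by DESeq2 and 2 at an unadjusted p under 0.05, and 4 were called lower. The number lower was 15 with upper quartile scaling and 16 without IL-4 replicate 1, with 6 higher and 1 lower without valinomycin replicate 3 and 1 lower without IL-4 replicate 2.

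Several of the largest differences between valinomycin and PGE2 were in genes at high levels with PGE2. Thbs1, which encodes the matrix protein thrombospondin, had 32, 37.6 and 53.1 CPM with valinomycin, 3796, 3921 and 4382 CPM with PGE2, and 13.6, 12.8 and 12.7 CPM with IL-4. It was called higher than IL-4 by 1.65 and was below PGE2 by a log2 difference of -6.62. Gja1, connexin 43, had 9.63, 10.9 and 11.7 CPM with valinomycin, 226, 209 and 247 CPM with PGE2, and 13.3, 14 and 16.8 CPM with IL-4, and Srgn, serglycin of secretory granules, had 267, 283 and 307 CPM with valinomycin, 2074, 2173 and 2342 CPM with PGE2, and 249, 243 and 252 CPM with IL-4. In these 3 genes no valinomycin library came near a PGE2 library. Tgm2, transglutaminase 2 and a mark of alternative activation, had 674, 717 and 692 CPM with valinomycin, 5146, 5071 and 5467 CPM with PGE2, and 558, 632 and 629 CPM with IL-4. Among genes lower with valinomycin than with both other treatments, Fnta, the shared subunit of protein farnesyl and geranylgeranyl transferase, had 34.2, 33.1 and 32 CPM with valinomycin, 75.1, 77.9 and 75.7 CPM with PGE2, and 68.8, 68.6 and 70.5 CPM with IL-4, a fall against IL-4 of 1.07 ± 0.05 (SE, adjusted p = 4.52e-13). Bbs12, a chaperonin-like gene of the primary cilium, fell by 1.53 ± 0.16 against IL-4, with 2.75, 3.09 and 3.45 CPM with valinomycin, 10.7, 10.7 and 7.68 CPM with PGE2, and 8.81, 9.65 and 8.44 CPM with IL-4.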

How the data were processed

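Messenger RNA was sequenced from 12 wild type libraries in 4 groups of 3, and 18 libraries of a hairpin knockdown experiment were not used here. The deposited files held unnormalised read counts for Ensembl genes, made by the authors with STAR and featureCounts on GRCm38, per the submitters' processing notes, with no versions. DESeq2 and deepTools are named there too, and nothing made with them was used. The libraries were made with a TruSeq stranded mRNA kit, per the labels' protocols. How featureCounts treated strand is not given in the sources used here. Overlapping and antisense genes are therefore uncertain, as are genes with near-identical copies.

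Gene names and coordinates came from GENCODE M21 on GRCm38, which matched 42548 of 43629 IDs (97.52%); unmatched IDs held 0.172% of reads. All 12 libraries were fitted together with edgeR 4.0.16 in R 4.3.3 (TMM scaling, filterByExpr, robust quasi-likelihood test), and p-values were adjusted by Benjamini-Hochberg over all 12824 tested genes. The SE is the absolute log2 fold change over the square root of F. CPM used effective library sizes. The fit was tested on simulated data. Replicates of a group differed beyond sampling noise, with a chi-square per degree of freedom of 1.235 to 6.03 over the pairs of the 4 groups. The genes followed over the alternatives were chosen by a rule. It took up to 5 called members in each direction of each list, its first 3 members and all members of lists of at most 12. It added the 12 largest changes and the 8 largest differences from PGE2, each way, at a mean of at least 5 CPM. A few genes were always included. Values of other list members, such as Per1, Ppp1r15a, Sesn2 and Stat6, are given in the text outside this rule. The comparison, the 55 lists and the named genes were chosen with earlier results of these data known, and the lists of clock and tubulin genes after gene values had been seen. Alternatives were 3 other scalings, 2 other filters, the DESeq2 1.42.0 test, the 6 libraries alone, the mitochondrial genome left out and a replicate block. Each valinomycin, PGE2 or IL-4 library was also left out in turn, for the comparisons that use its group. No unstimulated library was left out. Values of a few genes are not reported here.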

Additional observations from a re-analysis of the deposited data

How the results depend on the processing

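Over the alternatives the number of genes called against IL-4 stayed within 1.5 times of that reported, from 2101 higher (upper quartile scaling) to 2683 (no filter) and from 1808 lower (DESeq2) to 3101 (upper quartile scaling). DESeq2 called 2201 higher. Leaving out 1 library gave 2163 to 2468 higher and 1852 to 2219 lower. Against PGE2, leaving out 1 library gave 3751 to 3970 higher and 3692 to 3858 lower, and DESeq2 gave 3692 and 3499. In 0 cases was a called gene called in the opposite direction under an alternative. Of 433 tested genes chosen by the rule above 326 were called, 253 of them under every alternative that tested them and 73 not under some. A gene not tested under an alternative was passed over there, as mt-Rnr1 and mt-Rnr2 were with the mitochondrial genome left out. Genes given in the text outside that rule are not in these counts. Replicate numbers are shared between groups. The deviations of same-numbered valinomycin and IL-4 libraries had correlations of 0.075, 0.079 and 0.123, and pairs with different numbers -0.068 to -0.014. Between valinomycin and PGE2, same-numbered pairs had 0.167, 0.089 and 0.198, and the others -0.155 to -0.009. Every valinomycin library correlated best with its own number, a hint from the data and not the design. The labels do not say whether same-numbered libraries are paired. With the replicate number as a block, 2545 genes were higher and 2529 lower against IL-4, and 4074 and 4121 against PGE2. Under the block, the number called lower against IL-4 was 5 of the lysosome and autophagy list, 2 of the amino acid transporters and 3 of the glycolysis genes. It was 0 of the hypoxia list and 2 of the list of gamma, delta and epsilon tubulin and the gamma complex, and 1 interferon response gene was called higher. No time course was analysed, and 1 dose of valinomycin was used.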
